A study of Morella rubra with 12 samples.

Results

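In fruits of Chinese bayberry (Morella rubra), 55 of 119701 assembled genes were at least 2-fold lower at 70 days after flowering than at 55 days and rose at least 2-fold again by 85 days, not always to the earlier level. RNA sequencing had been run on fruits of the pale strain Baidongkui (BDK, with pink as its colour label) at 55, 70 and 85 days, labelled stages 1, 2 and 3. Ripe fruits of Dongkui (DK), a red cultivar whose colour label is black, were sequenced at 85 days. Each of the 4 groups has 3 libraries, and the labels name no treatment. The labels do not say whether replicate libraries stand for different trees, so p-values cover only the spread between the libraries at hand, and that spread may be technical.

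The values are FPKM, the fragments of a gene scaled by its length and by the size of the library. The members were chosen by their mean FPKM in the 4 groups. A gene belonged to the set when its mean FPKM + 1 was at least 6 at 55 and at 85 days, when this value fell to at most 0.5 of the 55-day value at 70 days and rose at least 2-fold again by 85 days, and when the DK value lay between 0.5 and 2 times the 85-day BDK value. The highest 70-day library also had to lie below every BDK library of 55 and 85 days. Of 10707 genes that met the level, 1058 also met the fall, 171 the fall and the rise, 72 the DK condition as well, and 55 all conditions. The mirrored rule, with a peak at 70 days, was met by 207 genes. The trough itself, and the likeness of DK to BDK at 85 days, are therefore what the genes were chosen for, and their values are given as a description.

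A fleshy fruit passes from growth through cell division and expansion to ripening, in which it softens, sweetens, loses acid and takes on colour. Large groups of genes are turned up or down along this course. A transcript that is present in young fruit, low in between and present again in ripe fruit follows neither of these courses. The gene IDs have the form of a de novo transcript assembly and carry no names in the files, so what these 55 genes encode was not analysed here.

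All 55 genes were above 0 in all 12 libraries, and all 55 were among the 23074 genes tested (at least 1 FPKM in at least 3 libraries). The libraries had a summed FPKM of 817744 to 1219278 and listed 32084 to 48737 genes above 0. The files hold no read counts. Relative depth, read from the steps between low values, ran from 0.866 to 1.16. The estimate varied with the library it was compared with. The SD on the log2 scale ran from 0.052 in replicate 1 of 55-day BDK to 0.33 in DK replicate 2. The order of the libraries in depth is thus uncertain. A split that crosses the labelled groups runs through the libraries: 876 genes were above 0 in the 3 BDK libraries of 55 days, replicate 1 of 70 days and replicates 1 and 2 of 85 days, and at 0 in the other 6, and 120 genes showed the reverse. All DK libraries lie in the second of these sets and all 55-day BDK libraries in the first, so DK and 55-day BDK cannot be told apart from the sets without the 70-day and 85-day libraries that cross them. Values with the set as a model term are given beside the results it moves.

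**Figure D1:**
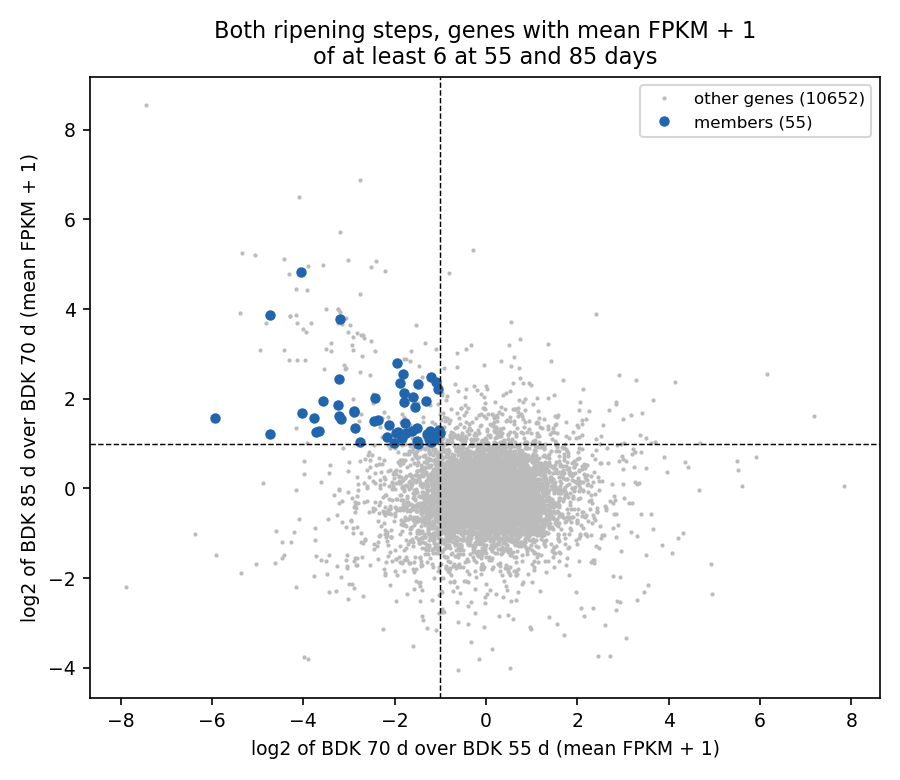
Change from 55 to 70 days (horizontal axis) against change from 70 to 85 days (vertical axis) in BDK, each as the log2 ratio of mean FPKM + 1, for the 10707 genes with a mean FPKM + 1 of at least 6 at 55 and 85 days. The 55 members (blue) lie in the upper left corner that the dashed 2-fold limits set, while grey points in the same corner failed the DK or the no-overlap condition.

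The trough was mostly moderate. Across the 55 genes the 55-day mean was 2.01 to 60.9 times the 70-day mean (median 3.69, on mean FPKM + 1), and the 85-day mean was 2.002 to 28.5 times the 70-day mean (median 2.83). The fall was larger than the rise in 36 genes. It reached 4-fold in 24 genes, the rise reached 4-fold in 14, and both reached 4-fold in 5. Mean levels over the 9 BDK libraries ran from 5.71 to 775 FPKM with a median of 28.6, and 7 genes averaged at least 100 FPKM.

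In all, the 55 genes held 0.55%, 0.499% and 0.398% of the summed FPKM in the 55-day libraries, 0.16%, 0.161% and 0.146% at 70 days, 0.497%, 0.538% and 0.594% at 85 days, and 0.526%, 0.555% and 0.675% in DK. The group means were 0.482% ± 0.077, 0.156% ± 0.0085, 0.543% ± 0.049 and 0.586% ± 0.079 (SD, n = 3). The 55-day, 85-day and DK libraries overlapped in this share, and the 70-day libraries lay below all of them; for the BDK libraries the rule requires this of each gene. The level of the median member was 39.4 ± 4.01 FPKM at 55 days, 7.25 ± 0.68 at 70 days, 26.1 ± 2.04 at 85 days and 22.3 ± 1.15 in DK.

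At the edge of the rule, the members nearest to its limits were c52401_g3, with a 2.80-fold fall and a 2.002-fold rise, and c50594_g2, with a 2.01-fold fall and a 2.34-fold rise. Gene c52401_g3 was at 42.0, 43.1 and 40.3 FPKM at 55 days, 14.2, 13.5 and 15.1 at 70 days, 29.3, 27.1 and 32.3 at 85 days and 22.3, 22.9 and 23.9 in DK. Just outside lay c53119_g3, with a 2.48-fold fall and a 1.99-fold rise, and c53289_g2, with a 2.68-fold fall and a 1.98-fold rise. The boundary thus runs through a continuous range of ratios: limits of 1.5-fold gave 176 genes and limits of 3-fold gave 17.

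**Figure D2:**
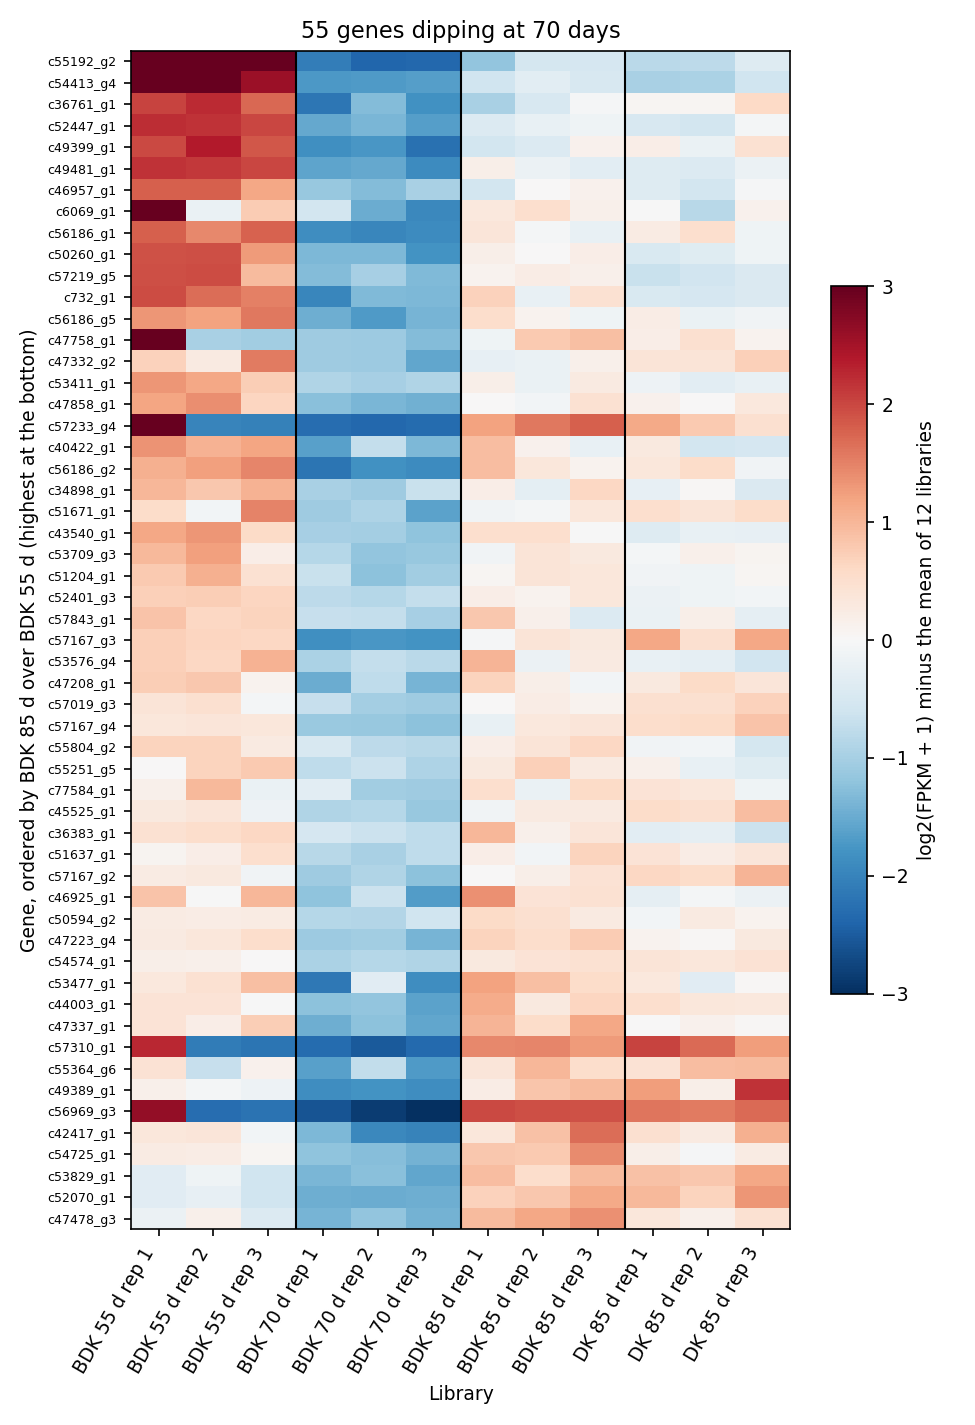
Level of each of the 55 genes (rows, ordered by the ratio of 85-day to 55-day BDK) in the 12 libraries (columns), as log2(FPKM + 1) minus the gene's mean over the 12 libraries, with the colour scale ending at 3 and -3. The 70-day columns are low throughout by the rule, genes at the top stay below their 55-day level at 85 days, and single dark red cells in the first column mark genes that were high in replicate 1 of the 55-day libraries and not in replicates 2 and 3.

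The deepest troughs rested on 1 library. Gene c56969_g3 was at 498, 15.4 and 16.4 FPKM in the 55-day libraries, 12.4, 10.2 and 6.74 at 70 days, 314, 305 and 302 at 85 days and 243, 237 and 259 in DK. Gene c57233_g4 was at 91.3, 0.50 and 0.47 FPKM at 55 days, 0.23, 0.17 and 0.20 at 70 days, 12.7, 16.9 and 19.6 at 85 days and 11.99, 9.32 and 7.26 in DK. In both genes replicates 2 and 3 of the 55-day group lay above the 70-day libraries but far below those of 85 days, and replicate 1 lay above every library of 85 days.

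These genes were followed up after their values had been seen, by counting the members whose value (FPKM + 1) in 1 library was at least 4-fold above both other libraries of its group. There were 5, each of them high in replicate 1 of the 55-day libraries: c56969_g3, c57233_g4, c57310_g1, c47758_g1 and c6069_g1. Gene c57310_g1 was at 30.2, 0.53 and 0.43 FPKM at 55 days, 0.31, 0.13 and 0.30 at 70 days and 16.6, 17.1 and 14.8 at 85 days. Gene c47758_g1 was at 93.8, 4.35 and 4.06 FPKM at 55 days and 4.02, 3.91 and 3.24 at 70 days, and c6069_g1 at 65.7, 5.33 and 11.4 FPKM at 55 days and 3.95, 1.58 and 0.91 at 70 days. No member stood out in this way in any of the other 11 libraries.

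Among all genes tested, replicate 1 did not hold more such genes than the other 55-day libraries: 118 genes (0.511%) were at least 4-fold above both other libraries in replicate 1, 141 (0.611%) in replicate 2 and 494 (2.14%) in replicate 3. Over the 12 libraries the number ran from 81 to 494. Of the 118, 59 had an 85-day mean at least 2-fold above the mean of the other two 55-day libraries, as 68 of the 141 and 184 of the 494 did.

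**Figure D3:**
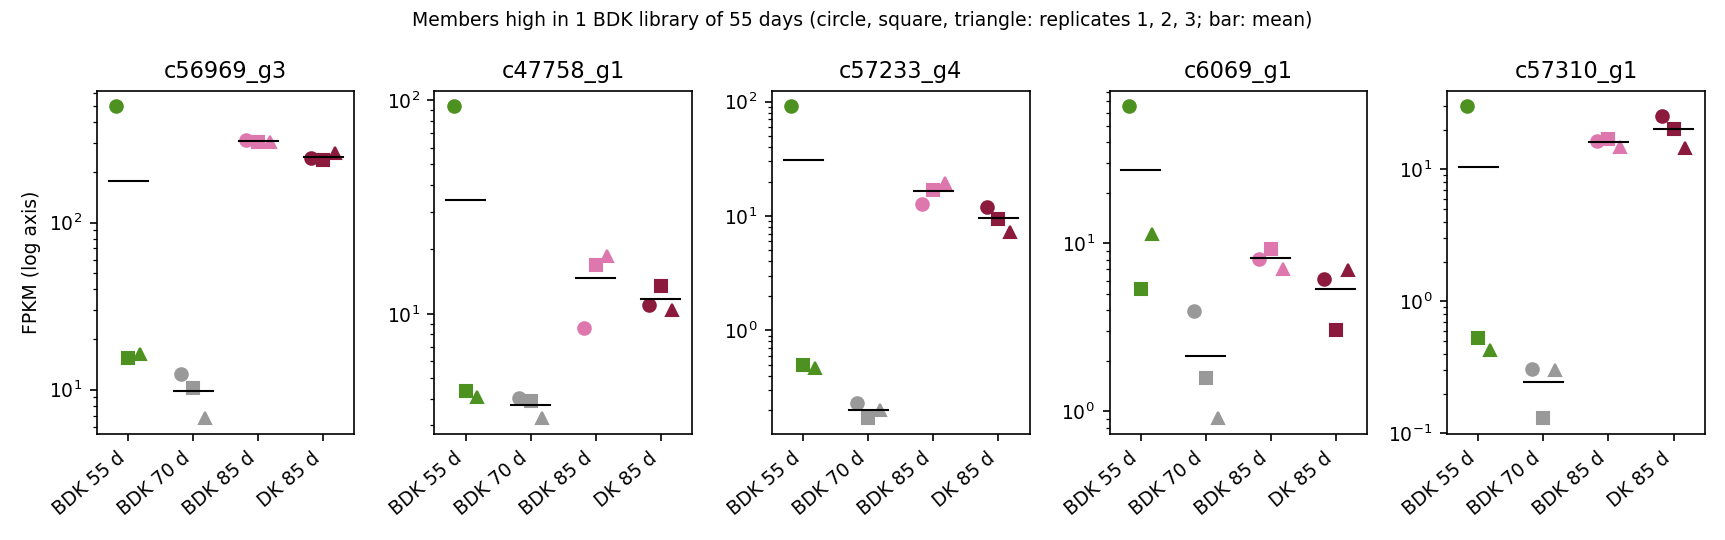
FPKM per library (log axis, a separate range for each gene) of the 5 members that were at least 4-fold higher in replicate 1 of the 55-day BDK libraries than in replicates 2 and 3. Circles, squares and triangles are replicates 1, 2 and 3 and bars are group means; in c56969_g3 the circle of 55 days lies at 498 FPKM and the square and triangle at 15.4 and 16.4, close to the 70-day libraries.

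For both steps, limma on log2(FPKM / scaling factor + 1), with p-values adjusted by the Benjamini-Hochberg method over all genes tested, called 50 of the 55 genes lower at 70 than at 55 days and higher at 85 than at 70 days (adjusted p below 0.05). Of all genes tested 4.62% were called in this way. Taken singly, 51 members were called in the fall and 53 in the rise, where 28.1% of all genes tested were called lower at 70 than at 55 days and 17.4% higher at 85 than at 70 days. The rule used these contrasts, so the count only describes how the rule and the model relate. The 5 genes not called in both steps were exactly the 5 that were high in 1 library of 55 days. Without that library the rule gave 52 genes, 50 of them among the 55. The 5 members lost were c56969_g3, c57233_g4, c57310_g1 and c47758_g1, which were high in that library, and c54574_g1.

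With those 5 genes set aside, the deepest trough was that of c56186_g2 (chosen after its values were seen), at 20.4, 22.7 and 27.1 FPKM at 55 days, 1.22, 1.90 and 1.74 at 70 days, 18.2, 11.9 and 9.88 at 85 days and 11.95, 13.9 and 8.39 in DK. Its 55-day mean was 9.33 times and its 85-day mean 5.46 times the 70-day mean. The next was c57167_g3, with a 5.42-fold fall and a 4.02-fold rise. Both belong to assembly clusters, groups of assembled genes whose IDs start alike, that hold 3 members each.

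The 55 genes came from 51 clusters, and the clusters c56186 and c57167 held 6 of them. Genes of 1 cluster can share reads, so the 3 members of a cluster are not independent cases of the trough and their separate levels are uncertain. Of the 55 genes, 26 (47.3%) had another tested gene in their cluster, as 36.1% of all tested genes did. Of the 59 tested genes that shared a cluster with a member without being one, 18 (30.5%) had their lowest BDK mean at 70 days, against 21.1% of all tested genes. Of the 59, 8 were at least 2-fold below both other stages, a count with no share of all tested genes to set beside it. Clusters c49399 and c57233 held 2 of these each. No test of these shares was made.

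Cluster c57167 held both of the most abundant members. Gene c57167_g2 was at 995, 1031 and 791 FPKM at 55 days, 404, 449 and 357 at 70 days, 845, 951 and 1148 at 85 days and 1295, 1235 and 1701 in DK. Gene c57167_g4 was at 678, 687 and 682 FPKM at 55 days, 247, 242 and 226 at 70 days, 458, 666 and 692 at 85 days and 772, 798 and 960.5 in DK. The 3 DK libraries lay above all BDK libraries in both genes. Together these genes made up 28.6% to 33.3% of the members' summed FPKM at 55 days, 38.7% to 41.7% at 70 days, 29.7% to 36.7% at 85 days and 42.6% to 46.8% in DK.

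The third member, c57167_g3, was lower and dipped further, at 48.0, 45.7 and 45.0 FPKM at 55 days, 7.40, 8.02 and 7.72 at 70 days, 28.3, 38.3 and 35.7 at 85 days and 65.8, 40.8 and 66.6 in DK. Its level was 4.98% ± 0.64 of that of c57167_g2 at 55 days, 1.93% ± 0.21 at 70 days, 3.49% ± 0.48 at 85 days and 4.10% ± 0.91 in DK (SD, 3 libraries each). These ranges did not overlap between the 3 BDK stages, so the cluster's genes did not keep 1 ratio through the trough. For c57167_g4 the ratio was 73.6% ± 10.9, 59.5% ± 5.02, 61.5% ± 7.96 and 60.2% ± 4.12 in the same order.

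Cluster c56186 was lower and returned less far. Gene c56186_g1 was at 36.8, 28.7 and 36.2 FPKM at 55 days, 2.00, 1.83 and 1.97 at 70 days, 12.96, 9.56 and 8.31 at 85 days and 12.1, 14.5 and 8.97 in DK. Gene c56186_g5 was at 16.5, 15.3 and 20.2 FPKM at 55 days, 1.56, 1.18 and 1.68 at 70 days, 9.15, 6.59 and 5.42 at 85 days and 7.25, 5.10 and 5.51 in DK. In these genes the 85-day and DK libraries lay between the 70-day and the 55-day libraries without overlap. The level of c56186_g2 was 69.9% ± 12.6 of that of c56186_g1 at 55 days and 128% ± 11.2 at 85 days, so that their order was reversed between young and ripe BDK. In DK the ratio was 96.2% ± 2.83.

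**Figure D4:**
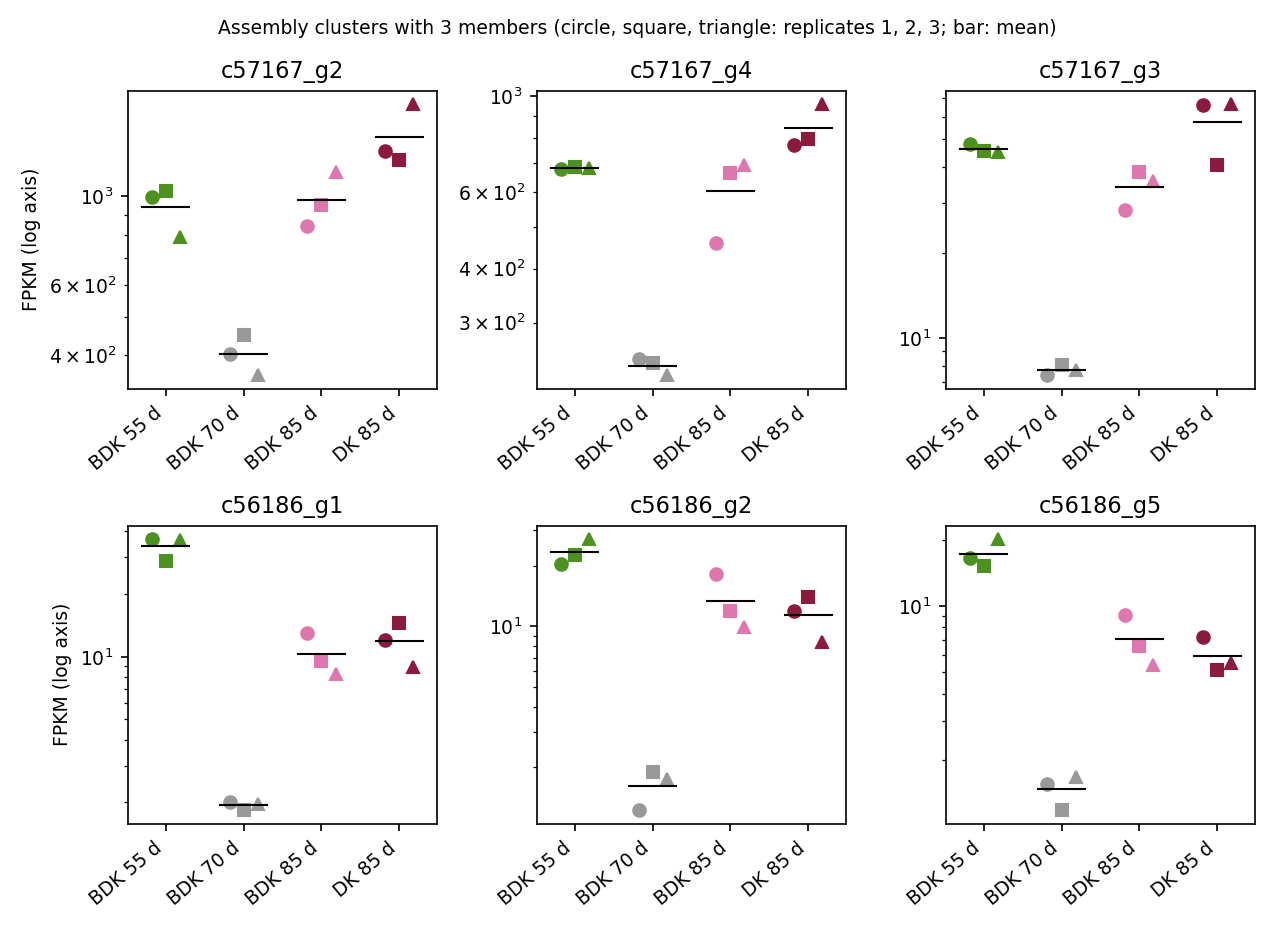
FPKM per library (log axis, a separate range for each gene) of the 3 members of cluster c57167 (top) and of cluster c56186 (bottom). Circles, squares and triangles are replicates 1, 2 and 3 and bars are group means; in c57167_g2 and c57167_g4 the DK libraries lie above all BDK libraries, and in c56186_g1 and c56186_g5 the ripe libraries stay below the 55-day ones.

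How far the genes returned is the contrast that the rule leaves most free. It sets no bound on the ratio of 85 to 55 days, although it uses both groups and asks for a minimum level in each. On FPKM as deposited the 85-day value of the median member was 74.2% of its 55-day value (range 4.89% to 246%, on mean FPKM + 1). Of the 55 genes 37 came back to within 2-fold of their 55-day level, 15 stayed more than 2-fold below it and 3 rose more than 2-fold above it. With trimmed-mean scaling factors these numbers were 37, 12 and 6, and the median was 86.6%. The counts include the 5 genes that were high in 1 library of 55 days, whose 55-day means rest largely on that library. On FPKM as deposited c56969_g3, c57233_g4 and c57310_g1 counted as within 2-fold, and c47758_g1 and c6069_g1 as below. In all of these but c6069_g1, replicates 2 and 3 of 55 days lay below every 85-day library.

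In the limma model 12 of the 55 genes (21.8%) were called higher at 85 than at 55 days and 15 (27.3%) lower, where 24.9% and 31.2% of all genes tested were called higher and lower. Both shares are close to those of all genes tested, which include genes below the level that the rule asks for. With a filter of 5 FPKM, 13 members were called higher and 18 lower, and 35.6% and 36.1% of all genes tested. The closeness thus depends on which genes are set beside the members. In the main fit the median log2 difference was -0.07 for the members and -0.09 for all genes, with a median SE of 0.20 for a member. On FPKM as deposited, the 85-day libraries lay above all 55-day libraries in 8 members (14.5%), against 20.2% of all genes tested. They lay below all 55-day libraries in 22 members (40%), against 40.1%. Without scaling factors the median of all genes shifted to -0.26 and the members' counts to 6 higher and 23 lower, while the calls over all genes shifted to 18.8% and 37.6%. The balance of directions thus depends on the scaling, for the members and for all genes. With the library set as a term 9 members were higher and 16 lower, with 24.1% and 29.9% of all genes, and in the first set of libraries alone the members' numbers were again 9 and 16, with 23% and 29.8% of all genes tested there.

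Genes c55192_g2 and c54413_g4 had the largest net falls among the called members whose libraries did not overlap. Gene c55192_g2 was at 223, 235 and 216 FPKM at 55 days, 3.22, 2.43 and 2.47 at 70 days, 6.90, 11.5 and 11.7 at 85 days and 9.28, 9.37 and 12.7 in DK. Gene c54413_g4 was at 113, 124 and 74.7 FPKM at 55 days, 2.82, 2.92 and 3.03 at 70 days, 7.33, 9.12 and 8.05 at 85 days and 5.45, 5.52 and 7.37 in DK. In both, the ripe libraries lay above every 70-day library and far below every 55-day library.

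Their log2 differences between 85 and 55 days were -4.17 ± 0.18 and -3.27 ± 0.18 (SE), at adjusted p of 2.84e-08 and 9.96e-08 from limma. For these genes the trough is a nearly complete fall followed by a small return: the 85-day value was 4.89% and 8.76% of the 55-day value. In DK the log2 differences from 55-day BDK were -4.10 ± 0.18 and -3.65 ± 0.18, with adjusted p of 3.14e-08 and 4.995e-08 from limma. The rule's upper limit on the DK mean by itself places DK far below 55-day BDK in both genes. Their DK values are therefore a description.

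The largest net rises among the called members whose libraries did not overlap were those of c47478_g3 and c52070_g1. Gene c47478_g3 was at 27.7, 35.1 and 23.5 FPKM at 55 days, 11.5, 13.4 and 11.2 at 70 days, 61.9, 71.8 and 83.2 at 85 days and 40.4, 35.0 and 43.7 in DK. Gene c52070_g1 was at 25.8, 27.5 and 21.3 FPKM at 55 days, 11.2, 10.96 and 11.2 at 70 days, 53.4, 58.2 and 73.1 at 85 days and 64.7, 53.0 and 84.1 in DK. All 85-day libraries lay above all 55-day libraries in both genes.

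Their log2 differences between 85 and 55 days were 1.53 ± 0.16 and 1.49 ± 0.18 (SE), at adjusted p of 1.12e-05 and 3.71e-05 from limma. In DK they differed from 55-day BDK by 0.67 ± 0.16 and 1.59 ± 0.18, with adjusted p of 0.0037 and 2.29e-05 from limma. The rule's limit on the DK mean by itself places DK above 55-day BDK in these genes, so their DK values are a description. All 4 genes kept their direction and their call for 85 against 55 days under each of the 23 other settings tried. Larger fitted differences belonged to 3 genes that were high in 1 library of 55 days: 2.79 ± 1.04 in c56969_g3, 2.23 ± 0.92 in c57310_g1 and 1.71 ± 1.24 in c57233_g4, with adjusted p of 0.041, 0.061 and 0.28. In these genes replicate 1 of the 55-day group lay above all 85-day libraries.

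**Figure D5:**
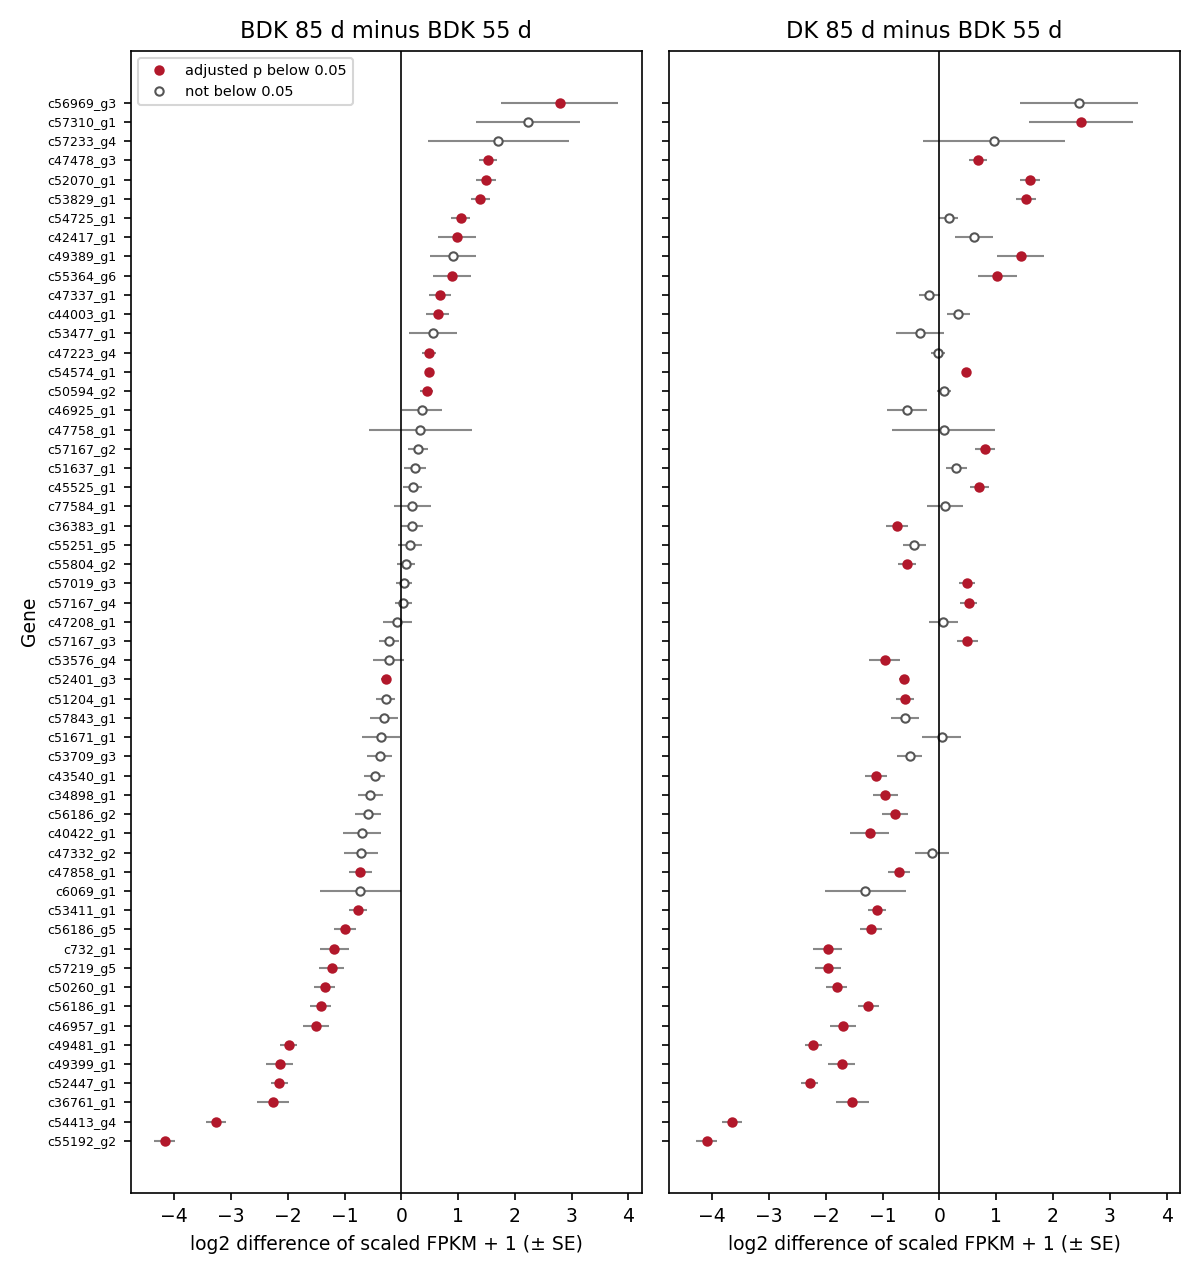
Log2 difference of scaled FPKM + 1 (± SE) between 85-day and 55-day BDK (left) and between DK and 55-day BDK (right) for the 55 genes in the same order. Filled points have a limma adjusted p below 0.05. From c55192_g2, at -4.17, to c47478_g3, at 1.53, the order runs from genes that barely returned to genes that ended above their 55-day level. Beyond c47478_g3 lie c57233_g4, c57310_g1 and c56969_g3, in which replicate 1 of 55 days lay above all 85-day libraries. The widest bars belong to genes that were high in 1 library of 55 days.

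Seen from DK, which shares the 55-day BDK libraries with the comparison above, 12 genes (21.8%) were called higher than 55-day BDK and 23 (41.8%) lower, where 25.6% and 32% of all genes tested were. The median log2 difference was -0.44 for the members and -0.11 for all genes. The rule holds the DK mean within 2-fold of ripe BDK, a limit that all genes tested do not have. On mean FPKM + 1, this places DK below 55-day BDK in the 15 members whose ripe BDK mean was over 2-fold lower. It places DK above 55-day BDK in the 3 members whose ripe BDK mean was over 2-fold higher. The rule thus sets the direction for part of the members, so these counts and the median are a description. With the library set as a term 4 members were called higher and 17 lower, and of all genes tested 19.8% and 23.4%. Without DK replicate 3, 7 members and 24.5% of all genes tested were called higher. Among the higher ones were all 3 members of cluster c57167, with log2 differences of 0.80 ± 0.18 for c57167_g2, 0.52 ± 0.15 for c57167_g4 and 0.49 ± 0.18 for c57167_g3 (SE) and adjusted p from limma of 0.0028, 0.013 and 0.037. With the set as a term the differences were 0.58, 0.34 and 0.35 and none was called, at adjusted p of 0.099, 0.24 and 0.34.

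All 3 members of cluster c56186 were lower in DK than in 55-day BDK, by log2 differences of -1.25 ± 0.18 for c56186_g1, -0.79 ± 0.23 for c56186_g2 and -1.20 ± 0.19 for c56186_g5 (SE), at adjusted p from limma of 1.47e-04, 0.013 and 2.80e-04. The 85-day value of c56186_g1 and c56186_g5 was 32.3% and 44.0% of the 55-day value (mean FPKM + 1). In these 2 genes the rule's limit on the DK mean by itself places DK below 55-day BDK, so their DK values are a description. For c56186_g2, at 58.6%, the rule does not set the direction. With the set as a term c56186_g2 was at -0.73 and no longer called, at an adjusted p of 0.13. Between 85-day and 55-day BDK the log2 differences of these genes were -1.42 ± 0.18, -0.59 ± 0.23 and -0.99 ± 0.19, with adjusted p of 5.59e-05, 0.0501 and 0.0011.

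Between the ripe fruits, the rule holds the DK mean between 0.5 and 2 times the BDK mean, so the values are a description. The ratio of DK to 85-day BDK ran from 0.508 to 1.67 with a median of 0.806, and DK was higher in 19 genes and lower in 36. Limma called 1 gene higher in DK, c57167_g3, and 7 lower, where 3.53% and 3.05% of all genes tested were called higher and lower. The call of c57167_g3 was lost in 14 of 22 other settings. With the library set as a term its log2 difference was 0.61, at an adjusted p of 0.20 from limma, and no member was called higher. On FPKM as deposited, the libraries did not overlap in 8 genes with DK higher (12.2% of all genes tested) and in 19 with DK lower (12%). The count of genes that limma called lower ran from 0 to 10 when single libraries were left out. It was 1, 0 and 4 without DK replicates 1, 2 and 3, 3 without replicate 1 and 4 without replicate 3 of 85-day BDK. A model term for the library set left 4. Over all genes tested the lower calls also became fewer in these settings, at 1.3%, 1.23% and 1.57% without DK replicates 1, 2 and 3, 1.56% and 2.52% without replicates 1 and 3 of 85-day BDK, and 1.04% with the set.

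The most negative log2 differences among these calls were those of c36383_g1 and c54725_g1. Gene c36383_g1 was at 20.3, 21.0 and 22.6 FPKM at 55 days, 9.88, 8.86 and 8.10 at 70 days, 29.8, 16.2 and 18.8 at 85 days and 11.3, 11.7 and 8.87 in DK, so that DK overlapped with 70-day BDK. Gene c54725_g1 was at 17.1, 16.7 and 14.8 FPKM at 55 days, 5.54, 5.22 and 4.68 at 70 days, 25.5, 24.96 and 39.8 at 85 days and 16.1, 13.8 and 17.1 in DK, so that DK lay at the 55-day level. With the library set as a term the log2 difference of c36383_g1 was -0.83 and no longer called, at an adjusted p of 0.11 from limma, and that of c54725_g1 was -1.08 and still called. In 52 of the 55 genes every DK library lay above every 70-day BDK library, which held for 15.5% of all genes tested and which the limits on the DK mean favour by construction. The exceptions were c36383_g1, c6069_g1 and c55804_g2.

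Within groups the members did not peak evenly over the replicates. DK replicate 3 was the highest of the DK libraries for 31 members (56.4%), against 22.5% of the genes with a DK mean of at least 5 FPKM. Of the 85-day BDK libraries replicate 3 was the highest for 29 members (52.7%), against 28.5% of such genes, and of the 70-day libraries replicate 3 was the highest for 7 (12.7%), against 27.1%. The rule used the BDK libraries one by one but the DK libraries only through their mean. The coefficient of variation of the median member was 18.1%, 14.4%, 21.0% and 14.3% at 55, 70 and 85 days and in DK, and that of the median gene of at least 5 FPKM was 9.75%, 8.46%, 10.8% and 8.34%.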

How the data were processed

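Per the labels' protocols, fruits were flash frozen, RNA was taken up in Trizol and libraries followed standard Illumina methods. For each library the authors deposited an FPKM column beside the gene IDs, per the file headers, and no counts. Which assembler, quantifier or annotation was used is not given in the sources used here. Groups and replicate numbers come from the sample titles and days from the design text.

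The rule was applied to FPKM as deposited. For tests, FPKM was divided by trimmed-mean factors (30% of log ratios and 5% of levels trimmed at each end), between 0.898 and 1.11. Genes had to reach 1 FPKM in 3 or more libraries. Limma 3.58.1 (R 4.3.3, variance trend) was fitted to log2(FPKM / factor + 1) over all 12 libraries without covariates, with Benjamini-Hochberg adjustment over the 23074 genes left. The scale understates changes of low genes. The fit was also run on simulated data with independent normal noise for each gene and library. That simulation held no library sets, no genes made high in a single library and no choice of members by the rule. It therefore says nothing on these features. No library was a copy of another: the largest share of tested genes with equal values in any pair was 11.9%.

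The members, lists and tests were chosen with earlier results of these data known. Genes are named by a rule: the 2 most abundant, the 2 with the deepest trough, the 2 largest net rises and falls among called genes without overlap, the 2 highest and 2 lowest called in DK against BDK, those nearest to the limits, and those of clusters with at least 2 members. Only 1 gene was called higher in DK, so c52401_g3, called lower, took the second place there. Exceptions are marked as chosen after their values were seen. Alternatives were other scalings, filters, pseudocounts and rule limits, the replicate number as a block, the library set as a term, the groups compared alone, a 2-fold minimum and each library left out.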

Additional observations from a re-analysis of the deposited data

How the results depend on the processing

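The number of genes meeting the rule was 31 with an offset of 5, 17 with 3-fold and 176 with 1.5-fold limits, and 51 to 64 with single libraries left out. Trimmed-mean scaling gave 68 genes, 50 of them among the 55. The calls for 85 against 55 days (12 higher, 15 lower) became 6 and 23 without scaling factors, where 18.8% and 37.6% of all genes tested were called. With single libraries left out they became 8 to 15 and 14 to 20, with 24.0% to 26.3% and 27.0% to 32.4% of all genes tested. A 2-fold minimum left 5 higher and 11 lower members, and 2439 and 4048 of the 23074 genes tested. For DK against 55-day BDK (12 higher, 23 lower) the higher genes numbered 7 without scaling factors, 7 with no filter on low values, 4 with the library set as a term and 5 with a 2-fold minimum, which left 15 lower genes. Of all genes tested 19.8% were called higher without scaling factors, 4.88% with no filter and 19.8% with the set. The 2-fold minimum left 2477 higher and 4282 lower of the 23074 genes tested. With single libraries left out the members called numbered 7 to 14 and 22 to 25, with 24.4% to 26.4% and 27.6% to 33.3% of all genes tested.

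For DK against 85-day BDK, the 1 higher gene became 0 with no filter, with the replicate block, with the set as a term and with only these groups. It also became 0 with members rechosen without BDK 55-day replicate 1 (chosen after seeing the data), and 0 to 1 with single libraries left out. The 7 lower genes became 0 with no filter, 4 with the set, 2 with only these groups and 0 to 10 with single libraries left out. Of all genes tested 0.207% and 0.144% were called higher and lower with no filter, and 1.29% and 1.04% with the set. With only these groups the shares were 1.82% and 1.72%, and with single libraries left out 1.62% to 5.24% and 1.23% to 4.32%. A 2-fold minimum left 0 higher and 0 lower genes. The rule holds the DK mean within 2-fold of 85-day BDK, so this follows almost by construction. The cause of the other changes was not tested. Calls in both steps numbered 49 to 52 with single libraries left out, and the members' share of the summed FPKM cannot change with scaling, since a library's factor cancels.

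Samples with the same replicate number showed little sign of deviating together: r ran from -0.14 to 0.17 over 18 pairs, 1 of them over 0.1. These values give no sign that the numbers pair the samples, but weak correlations cannot exclude it. With the number as a block 11 members were higher and 16 lower at 85 than at 55 days, 11 and 24 in DK than in 55-day BDK, and 0 and 5 in DK than in 85-day BDK. Of all genes tested 24.7% and 30.9%, 25.4% and 31.8%, and 2.63% and 2.26% were called, in the same order. Depth is unknown beyond the relative estimates, so no counting error can be given for low 70-day values.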
